A study of Homo sapiens with 4 samples.

Results

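YAP and TGF-beta target genes are genes switched on by the YAP and TAZ co-activators, by TGF-beta signalling, or by both. The set was chosen by gene name and holds 9 genes, CTGF (current symbol CCN2), CYR61 (current symbol CCN1), ANKRD1, AMOTL2, LTBP2, TGFB2, TGFBI, SMAD7 and EDN1. Of these 9, 8 have a row in the authors' deposited table of 8727 genes, and TGFB2 has none. HepG2, an established human liver cancer cell line described in the labels as hepatoblastoma, was studied by sequencing of polyadenylated RNA in 2 libraries from cells given isoginkgetin at 20 µM for 24 h and 2 libraries from cells given the solvent DMSO. Isoginkgetin, a biflavonoid made by plants such as ginkgo, is known to inhibit the splicing of pre-mRNA. The time of the DMSO exposure is not given in the labels, and separate cultures are not mentioned there. The p-values therefore cover only the spread among these 4 libraries, which may be technical.

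YAP and TAZ enter the nucleus and bind TEAD transcription factors unless the LATS kinases of the Hippo pathway phosphorylate them. TGF-beta ligands are released from latent complexes in the matrix, bind a pair of receptor kinases and act through SMAD2 and SMAD3 together with SMAD4. In liver both routes are known for control of matrix, adhesion and growth genes, and CTGF is a textbook target of each.

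The table holds the authors' comparison only, so a level in each library is not analysed here. For each gene it lists a normalized count averaged over the 4 libraries, the log2 fold change and its standard error (SE), and the raw and adjusted p, and every row has an adjusted p under 0.05 (Benjamini-Hochberg, in the authors' own test). Its headers do not name the group in the numerator. Fold changes are read here as isoginkgetin over DMSO, and every direction would turn round if the authors used the other order. A gene with no row may have been unchanged, untested or left out for another reason, and its direction is not known.

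All 8 members with a row were lower with isoginkgetin, by amounts from 1.25-fold for SMAD7 to 17.3-fold for EDN1. The table's p-values imply 20024 tested genes, of which 43.6% passed the adjusted p threshold of 0.05 in either direction and 21.1% were lower, against 8 of the 9 members. The members were chosen with earlier results of these data known, so such shares describe the set and do not test it. The median log2 fold change of the 8 members was −1.04, beside 0.21 over all genes in the table and −0.78 over its 4234 lower genes. At least 2-fold lower were 4 members, EDN1, CTGF, ANKRD1 and TGFBI, against 7.43% of the tested genes. LTBP2, CYR61, AMOTL2 and SMAD7 changed by less than 2-fold, although the 95% intervals of LTBP2 and CYR61 include a 2-fold decrease. These are bulk libraries, in which fewer cells that express a gene and less of its RNA per cell cannot be told apart.

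**Figure D1:**
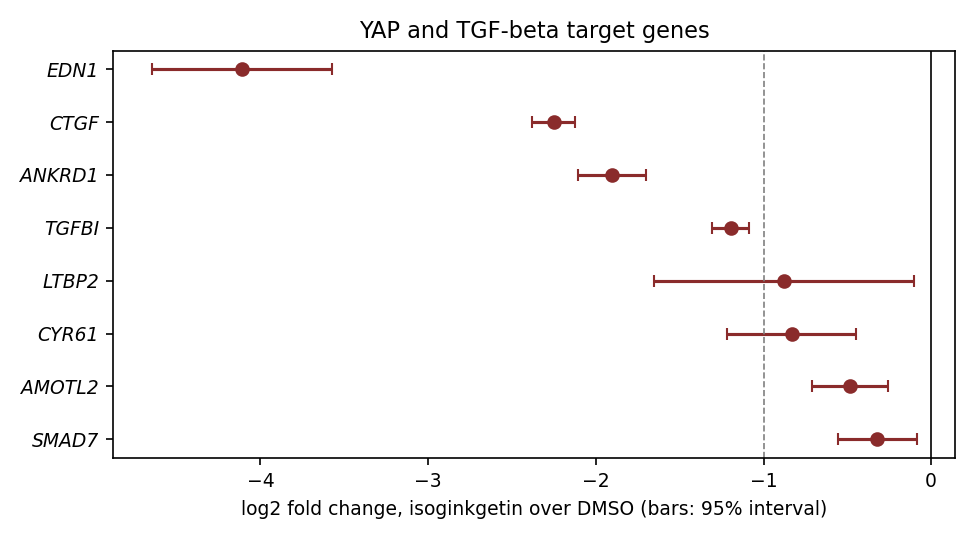
Log2 fold change of each member with a row in the authors' deposited table, isoginkgetin over DMSO, with its 95% interval (1.96 SE to each side) and a dashed line at a 2-fold decrease. EDN1 stands apart at −4.11, and the interval of LTBP2, −1.65 to −0.10, is the widest.

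The sequences just upstream of the transcript starts are shown for 4 members, because CTGF, ANKRD1 and AMOTL2 carry the letters read by TEAD factors and EDN1 had the largest change. They come from RefSeq on GRCh38.p14, which may not be the build the authors used, and are written 5′ to 3′ on the strand of the gene, ending at the base before the start. In the first 3, capitals mark GGAATG, the core read by TEAD factors, or its reverse complement. In EDN1 they mark CAGAC, a SMAD-binding core, or its reverse complement, and the reverse complement of ACGTG, the core of the hypoxia response element. The windows are chr6:131951373-131951622 (minus strand) for CTGF, chr10:90921088-90921337 (minus strand) for ANKRD1, chr3:134374448-134374697 (minus strand, start 2 of 2) for AMOTL2 and chr6:12290111-12290360 (plus strand, start 3 of 3) for EDN1.
CTGF: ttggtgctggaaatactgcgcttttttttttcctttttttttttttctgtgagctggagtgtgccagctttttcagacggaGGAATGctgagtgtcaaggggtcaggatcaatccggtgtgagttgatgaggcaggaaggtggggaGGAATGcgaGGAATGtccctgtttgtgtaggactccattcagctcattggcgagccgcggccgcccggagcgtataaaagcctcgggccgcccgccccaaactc
ANKRD1: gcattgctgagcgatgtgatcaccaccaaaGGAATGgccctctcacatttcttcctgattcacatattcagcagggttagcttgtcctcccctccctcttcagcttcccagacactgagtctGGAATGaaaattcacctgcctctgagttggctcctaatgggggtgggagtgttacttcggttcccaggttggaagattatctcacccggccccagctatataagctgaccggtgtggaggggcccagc
AMOTL2: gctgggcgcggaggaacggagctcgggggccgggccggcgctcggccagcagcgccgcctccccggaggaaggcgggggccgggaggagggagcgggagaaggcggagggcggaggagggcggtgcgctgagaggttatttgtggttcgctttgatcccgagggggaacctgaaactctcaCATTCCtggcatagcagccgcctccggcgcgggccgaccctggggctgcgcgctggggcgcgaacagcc
EDN1: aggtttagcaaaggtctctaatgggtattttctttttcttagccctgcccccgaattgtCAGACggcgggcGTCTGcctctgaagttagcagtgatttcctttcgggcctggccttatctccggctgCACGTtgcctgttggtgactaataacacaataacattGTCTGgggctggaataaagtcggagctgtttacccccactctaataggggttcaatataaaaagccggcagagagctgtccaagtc

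RefSeq windows of 250 bases were at hand for 8 of the 9 members, 13 windows in all, with several starts for AMOTL2, SMAD7 and EDN1; CYR61 is named only. GGAATG was searched on both strands and stood in 5 of the 13 windows, those of CTGF, ANKRD1, TGFB2, start 2 of AMOTL2 and start 2 of EDN1. The CTGF window held 3 copies, beginning 169, 104 and 95 bases before the start, and the ANKRD1 window held 2, at 220 and 128 bases. Among 35116 windows of the same length over all genes, 11.9% held GGAATG at least once, 0.940% at least 2 times and 0.0826% at least 3 times. Both copies in ANKRD1 and all 3 in CTGF read on the strand of the gene.

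CAGAC is a short and common string, present on either strand in 38.0% of all windows, and 9 of the 13 member windows held it. Start 3 of EDN1 held 3 copies, a number reached by 1.62% of all windows, and the windows of TGFBI and LTBP2 held none. The reverse match that begins 132 bases before the ANKRD1 start shares its last base with a GGAATG. The AP-1 string TGANTCA, present in 6.57% of all windows, was found only in the window of ANKRD1 among the members. ACGTG, present in 18.5% of all windows, was found in those of EDN1 (starts 1 and 3) and TGFB2. The 4 strings, the length of 250 bases and the windows printed were settled after a first look at the members' windows, in which 9 patterns were scanned over 300 bases (ACGTG was taken up after it, in place of the hypoxia core with A or G first), so the matches support nothing about the members. With C or G at its centre, the usual form of the AP-1 site, the string was in no member window, although 4.20% of all windows of 250 bases held it. The palindromic SMAD element GTCTAGAC and the CArG box read by SRF were in none either, against 0.182% and 1.16% of all windows. The longer GGAATGT and CAGACA were in 3 and 4 of the 13 member windows, against 2.96% and 13.6% of all windows. The hypoxia core with A or G as its first letter was in 4 member windows, against 43.2% of all windows. Over 300 bases CAGAC was in 10 member windows and ACGTG in 4. These matches describe letters in the reference and say nothing of binding in these cells.

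**Figure D2:**
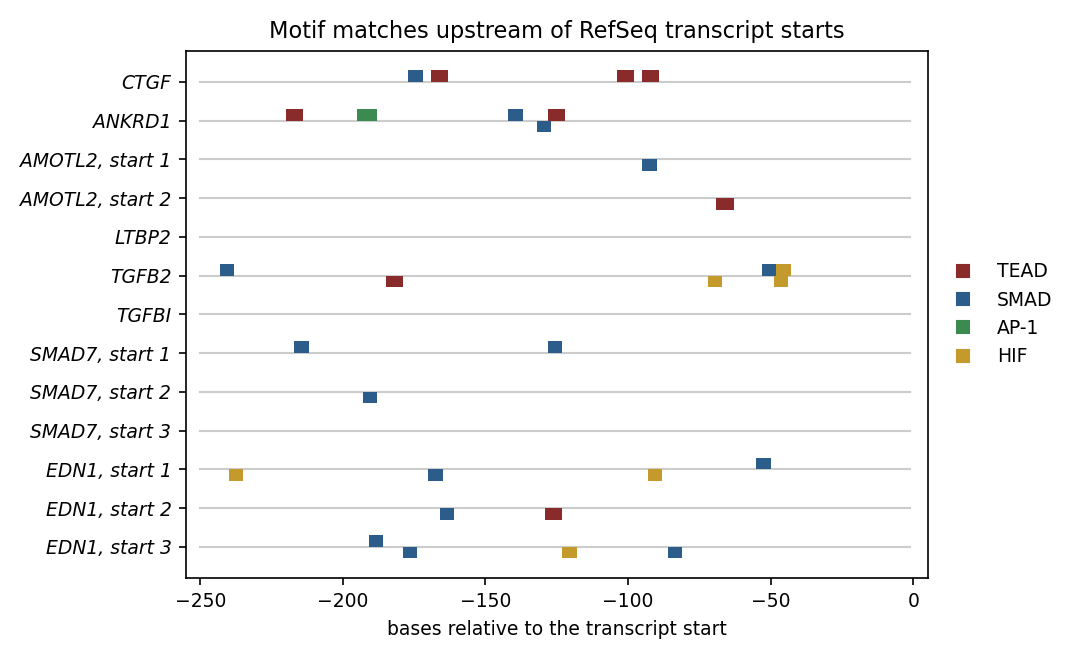
Motif matches in the 250 bases before each RefSeq transcript start of the 8 members with a window, one line per start, by distance from the start in bases. Blocks above a line read on the strand of the gene and blocks below it on the other strand; the 3 TEAD blocks of CTGF and the 2 of ANKRD1 are the only windows with more than 1 TEAD block.

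The matricellular genes of the CCN family were both lower but not equally. CTGF encodes a secreted protein that links growth factors, integrins and matrix. Per the authors' deposited table its mean normalized count was 4276, with a log2 fold change of −2.25 (SE 0.06 and adjusted p 4.00e-261), which places it at rank 8 of 8727 by p-value. This leaves 21.0% of the DMSO level in isoginkgetin cells, with a 95% interval of 19.2% to 22.9%. CYR61, its close relative and a classic early YAP target, had a mean of 265 and a log2 fold change of −0.83 (SE 0.20 and adjusted p 3.06e-05) per the authors' deposited table, so that 56.2% remained (43.1% to 73.4%). The difference CTGF minus CYR61 was −1.42 on the log2 scale, with a 95% interval of −1.82 to −1.02 if the errors of the 2 genes are independent. The genes share the same 4 libraries, so this interval is approximate. In all, 12 such differences between genes were computed, for pairs chosen after their values were seen, and their intervals are not adjusted for that number. None of the other 4 CCN genes has a row.

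ANKRD1 and AMOTL2 are widely used YAP readouts with different roles. ANKRD1 encodes an ankyrin repeat cofactor best known from the heart, and AMOTL2 a junction scaffold of the angiomotin family that binds YAP and restrains it. ANKRD1 had a mean normalized count of 1372 and a log2 fold change of −1.90 (SE 0.10 and adjusted p 5.40e-75) per the authors' deposited table, leaving 26.7% of the DMSO level (23.2% to 30.7%). AMOTL2 had a mean of 1002 and a log2 fold change of −0.49 (SE 0.12 and adjusted p 6.49e-05) per the authors' deposited table, leaving 71.4% (61.0% to 83.5%). ANKRD2 and ANKRD23, the muscle relatives of ANKRD1, have no row. The decrease of ANKRD1 was a little smaller than that of CTGF (CTGF minus ANKRD1 −0.35, 95% interval −0.59 to −0.11). ANKRD1 minus TGFBI, the next member in order, was −0.71 (−0.94 to −0.48). The difference between CYR61 and AMOTL2 was not resolved (CYR61 minus AMOTL2 −0.34, 95% interval −0.79 to 0.10). AMOT, the founding angiomotin, was at −1.31 (SE 0.56) per the authors' deposited table at a mean of 38.1, and its difference from AMOTL2 was not resolved either (AMOTL2 minus AMOT 0.82, −0.29 to 1.94). AMOTL1, the remaining angiomotin, has no row.

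TGFBI had the highest mean normalized count of the 8 members. TGFBI, an adhesive matrix protein named for its induction by TGF-beta, had a mean normalized count of 7544 and a log2 fold change of −1.20 (SE 0.06 and adjusted p 1.22e-102) per the authors' deposited table. In isoginkgetin cells 43.6% of its DMSO level was left (40.5% to 47.0%). POSTN, the relative of TGFBI that encodes periostin, has no row.

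SMAD7, the inhibitory SMAD that TGF-beta induces as feedback on its own receptors, changed least. Its mean normalized count was 818 and its log2 fold change −0.32 (SE 0.12 and adjusted p 0.0153) per the authors' deposited table, so that 80.0% was left with an interval of 68.0% to 94.1%. SMAD6, the inhibitory SMAD of the BMP arm, was lower by more, at −1.68 (SE 0.16) per the authors' deposited table. The difference SMAD7 minus SMAD6 was 1.36 (95% interval 0.96 to 1.75). Between SMAD7 and AMOTL2, the members with the smallest changes, the difference was not resolved (AMOTL2 minus SMAD7 −0.16, −0.49 to 0.16).

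LTBP2, a matrix protein of the latent TGF-beta binding protein family, was the member with the lowest mean normalized count, 65.0. Its log2 fold change was −0.88 (SE 0.40 and adjusted p 0.0162) per the authors' deposited table, leaving 54.5% with an interval of 31.8% to 93.2%. LTBP3 and LTBP4, its relatives that bind latent TGF-beta, were at −0.72 (SE 0.09) and −0.93 (SE 0.22) per the authors' deposited table. Their differences from LTBP2 were not resolved, with wide intervals (LTBP2 minus LTBP3 −0.16, −0.95 to 0.64; LTBP2 minus LTBP4 0.06, −0.83 to 0.94), and neither was that from CYR61 (LTBP2 minus CYR61 −0.04, −0.91 to 0.82). FBN3, a fibrillin with a mean of 28.5, was at −2.34 (SE 0.69) per the authors' deposited table. LTBP1, FBN1, FBN2 and TGFB2 have no row, and neither do the ligand genes TGFB1 and TGFB3.

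EDN1, the precursor of the vasoconstrictor peptide endothelin-1 and a target of TGF-beta in several cell types, had the largest change. Its mean normalized count was 244 and its log2 fold change −4.11 (SE 0.28 and adjusted p 1.17e-49) per the authors' deposited table, rank 26 from the lowest of all 8727 genes. Only 5.79% of the DMSO level was left in isoginkgetin cells (3.99% to 8.41%). Its difference from CTGF, the next lowest member, was −1.86 on the log2 scale (95% interval −2.41 to −1.31). ECE1, the protease that releases mature endothelin, was lower too, at −1.13 (SE 0.07) per the authors' deposited table, and the other 5 genes of the endothelin system have no row. Endothelin-1 is best known from endothelial cells, and of 6 endothelial markers 2 have a row, PECAM1 at −0.68 (mean 129) and CLDN5 at −3.15 (mean 14.2) per the authors' deposited table. Of 9 hepatocyte markers 8 have a row, at means from 442 to 157429, and ALB has none. All 8 were lower, by log2 fold changes of −1.04 to −0.21 per the authors' deposited table. Of 8 fibroblast and stellate cell markers 2 have a row, PDGFRB at −1.98 and ACTA2 at −1.53 per the authors' deposited table. Of 6 leukocyte markers 2 have a row, both lower, with LYZ at −1.08 per the authors' deposited table. A row marks a change and not presence, and among all tested genes 43.6% have a row and 21.1% were lower. Lower were 88.9% of the hepatocyte markers and 25% of the fibroblast and stellate cell markers. The share was 33.3% for the endothelial and for the leukocyte markers. The last 3 shares are near that of all tested genes and are no result about these markers. The part of the marker changes in the members' decrease was not tested.

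**Figure D3:**
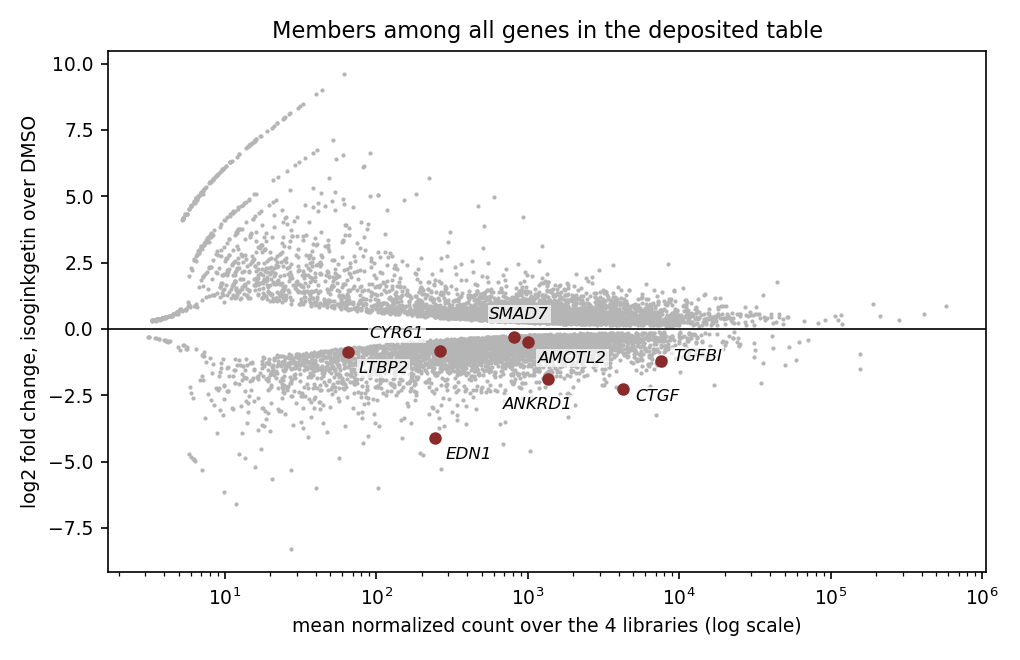
Log2 fold change, isoginkgetin over DMSO, against mean normalized count over the 4 libraries (log axis) for all 8727 genes of the authors' deposited table (grey) and the 8 members (red). EDN1, at −4.11, lies among the lowest genes of its level, while SMAD7 lies near the edge of the empty band around 0 left by the threshold.

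Group means can be derived from these values. With equal groups, a mean and a fold change fix both group means, as long as the fold change is a plain ratio. For EDN1 they were 26.7 normalized counts in isoginkgetin cells and 460.5 in DMSO cells. CTGF was at 1485 in isoginkgetin cells and 7068 in DMSO cells, and ANKRD1 at 578 in isoginkgetin cells and 2165 in DMSO cells. TGFBI was at 4584 in isoginkgetin cells and 10504 in DMSO cells. For these 4 members the interval of the share left lies below an even split between what was left and what was lost. CYR61 was at 191 in isoginkgetin cells and 339 in DMSO cells, and LTBP2 at 45.9 in isoginkgetin cells and 84.2 in DMSO cells. For LTBP2 the plain ratio is in doubt, since its fold change looks understated, and its means may lie further apart. AMOTL2 was at 835 in isoginkgetin cells and 1169 in DMSO cells, and SMAD7 at 727 in isoginkgetin cells and 909 in DMSO cells. The intervals of the share left lie above that split for AMOTL2 and SMAD7, while those of CYR61 and LTBP2 span it. Since no library is seen on its own, no spread can be given with these means.

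**Figure D4:**
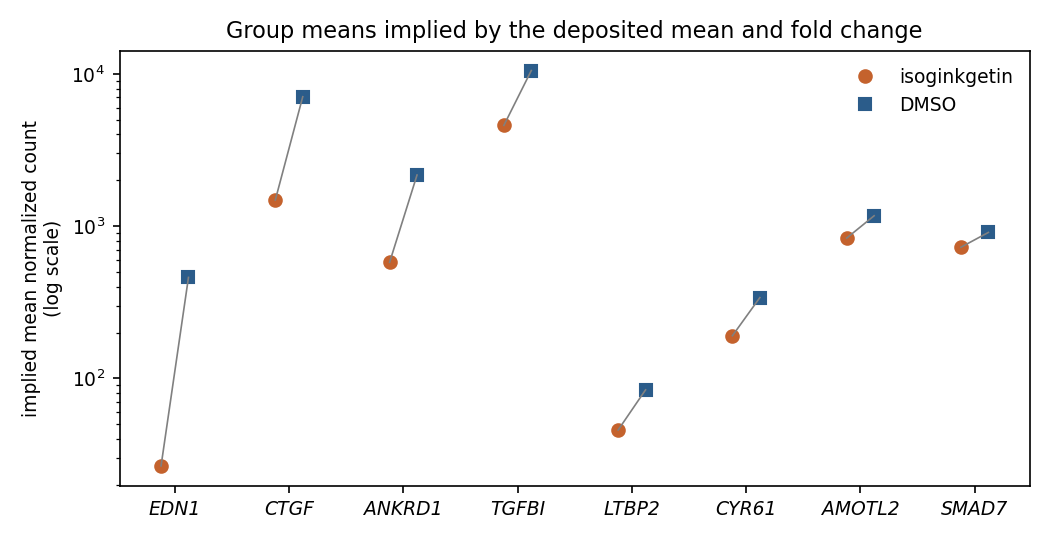
Group means of normalized counts (log axis) implied by the mean and fold change of each member in the authors' deposited table, isoginkgetin (circles) left of DMSO (squares). The line is steepest for EDN1, with 26.7 in isoginkgetin cells against 460.5 in DMSO cells, and nearly flat for SMAD7; no error can be drawn.

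Levels of different genes can be compared only per length of exon. With merged exon lengths of GENCODE 29, which may differ from the annotation the authors used, TGFBI had a mean of 2624 normalized counts per kb and CTGF 1828. ANKRD1 followed with 693 per kb, and AMOTL2 and SMAD7 with 209.6 and 180.5 per kb. EDN1 and CYR61 had 119.8 and 115.7 per kb. These are means over both groups, and the order within a group differs. The implied group means per kb were 13.1 for EDN1 and 83.3 for CYR61 in isoginkgetin cells, against 226.5 for EDN1 and 148 for CYR61 in DMSO cells. EDN1 thus lay below SMAD7 in isoginkgetin cells, where SMAD7 had 160.4 per kb. In DMSO cells EDN1 lay above SMAD7, which had 200.5 per kb. That second gap is small, has no spread and depends on the exon lengths used, so the order in DMSO cells is not settled. LTBP2, whose exons add up to 8567 bases, was lowest at 7.59 per kb.

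The genes beside the members that have a row did not share a direction. By RefSeq gene order, the nearest protein-coding gene on either side of the 9 members gives 18 genes. Of these, 8 have a row, 5 higher and 3 lower. Among all tested genes 43.6% have a row, 22.4% higher and 21.1% lower. The counts are near these shares and are no result about the neighbours. The 18 neighbours lie outside the rule for named genes and were looked up after the members' values were seen. CYR61 lies between DDAH1, at 0.22, and ZNHIT6, at 0.73 per the authors' deposited table, and AMOTL2 between RYK, at 0.33, and ANAPC13, at 0.63. SMAD5, next to TGFBI, was at 0.49 per the authors' deposited table, and CTIF, next to SMAD7, at −0.49. ENPP1, next to CTGF, was at −0.45 and LYPLAL1, next to TGFB2, at −0.83 per the authors' deposited table. Reads of these libraries are not stranded, and RefSeq places antisense or other transcripts over CTGF, TGFB2, LTBP2, AMOTL2 and EDN1, so reads of such transcripts cannot be told apart from those of the members where they overlap.

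Of 20 other listed YAP and TEAD targets, 9 were lower, 2 higher and 9 have no row. The 11 with a row had a median log2 fold change of −0.90, and the 9 lower genes are 45% of the list, beside 21.1% lower and 22.4% higher among all tested genes. This list and the others were chosen with earlier results of these data known, so their shares describe them and do not test them. AJUBA, a LIM protein that binds LATS kinases, was at −1.43 (SE 0.07) and CRIM1, a membrane protein that binds BMPs, at −0.97 (SE 0.07) per the authors' deposited table. ARHGEF17 was at −1.18 (SE 0.11), the growth factor binder IGFBP3 at −1.20 (SE 0.29) and the receptor kinase AXL at −0.92 (SE 0.22) per the authors' deposited table. The exceptions were GADD45A, also a stress gene, at 1.24 (SE 0.08) and LATS2, the kinase that YAP induces as feedback, at 0.43 (SE 0.09) per the authors' deposited table.

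Genes of the Hippo pathway itself went both ways. Of 23 listed genes 14 have a row, 7 lower and 7 higher, 30.4% each, beside 21.1% lower and 22.4% higher among all tested genes, with a median of −0.01. The co-activator genes WWTR1, which encodes TAZ, and YAP1 were at −0.72 (SE 0.08) and −0.27 (SE 0.06) per the authors' deposited table. The TEAD factors TEAD1 and TEAD4 were at −0.66 (SE 0.09) and −0.57 (SE 0.09) there, and TEAD2 and TEAD3 have no row in the authors' deposited table. The other lower genes were AMOT, MAP4K4, a kinase that can act on LATS, at −0.66 (SE 0.05), and WWC1, a scaffold upstream of LATS, at −0.39 (SE 0.11) per the authors' deposited table. The higher genes were the LATS kinases, with LATS1 at 0.87 (SE 0.09) and LATS2 again at 0.43, the LATS cofactors MOB1A and MOB1B at 0.26 and 0.43, the scaffold SAV1 at 0.29, NF2 at 0.26 and the upstream kinase TAOK1 at 0.35 per the authors' deposited table. The upstream kinase genes STK3 and STK4 have no row. These are transcript levels, and YAP activity is set largely by phosphorylation, which was not measured.

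Of 20 other listed TGF-beta targets 10 have a row, 4 lower and 6 higher, with a median of 0.41. These are 20% and 30% of the list, near the 21.1% lower and 22.4% higher of all tested genes, so the counts are no result about the list. FN1, the matrix protein fibronectin, was at −1.52 (SE 0.04) and ANGPTL4, a lipase inhibitor also induced by hypoxia, at −1.96 (SE 0.50) per the authors' deposited table. Higher were TAGLN, an actin binder, at 1.92 (SE 0.36), the repressor SNAI1 at 1.33 (SE 0.23) and the AP-1 subunit JUNB at 1.25 (SE 0.14) per the authors' deposited table. The difference between this list and the members was not tested.

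Of 4 listed TGF-beta receptors and co-receptors, 3 have a row and were lower. TGFBR3, the co-receptor betaglycan that presents TGF-beta2, was at −2.17 (SE 0.07), the type II receptor TGFBR2 at −0.88 (SE 0.05) and the type I receptor TGFBR1 at −0.30 (SE 0.12) per the authors' deposited table, and ENG has no row. SMAD3, which carries the signal, was at −0.32 (SE 0.08) and its partner SMAD4 at 0.46 (SE 0.10) per the authors' deposited table, and SMAD2 has no row. THBS1, an activator of latent TGF-beta, was at −0.55 (SE 0.07) and SMURF2, a ubiquitin ligase for the receptors, at 0.32 (SE 0.11) per the authors' deposited table. Of the 22 genes in this list, which includes the members LTBP2, SMAD7 and TGFB2, 11 have a row, 9 lower and 2 higher, with a median of −0.55. These are 40.9% and 9.09% of the list, beside 21.1% lower and 22.4% higher among all tested genes. With the members left out, 7 were lower and 2 higher.

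Of 18 genes of the related BMP arm 12 have a row, 9 lower and 3 higher (median −0.53). These are 50% and 16.7% of the list, beside 21.1% lower and 22.4% higher among all tested genes. The ligand BMP4 was at −1.55 (SE 0.08) and the BMP signal carrier SMAD9 at −1.06 (SE 0.17) per the authors' deposited table. ID1 and ID2, classic BMP targets, were at −0.93 (SE 0.06) and −0.78 (SE 0.08), and the signal carriers SMAD1 and SMAD5 at 0.73 (SE 0.16) and 0.49 (SE 0.08) per the authors' deposited table. Targets of SRF and its MRTF cofactors respond to actin like several YAP targets do. Their list also holds SRF and the cofactor genes MKL1 and MKL2. Of its 18 genes 13 have a row, 11 lower and 2 higher (median −0.42). These are 61.1% and 11.1% of the list, beside the same 21.1% lower and 22.4% higher among all tested genes. ACTA2 was at −1.53 (SE 0.16), the adhesion protein VCL at −1.35 (SE 0.08) and TPM2 at −1.06 (SE 0.20) per the authors' deposited table. TPM1 was at −0.56 (SE 0.12) and the cofactor MKL2 at −0.61 (SE 0.09) there, with TAGLN and SRF, at 0.30 (SE 0.09), the 2 higher ones of the authors' deposited table.

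**Figure D5:**
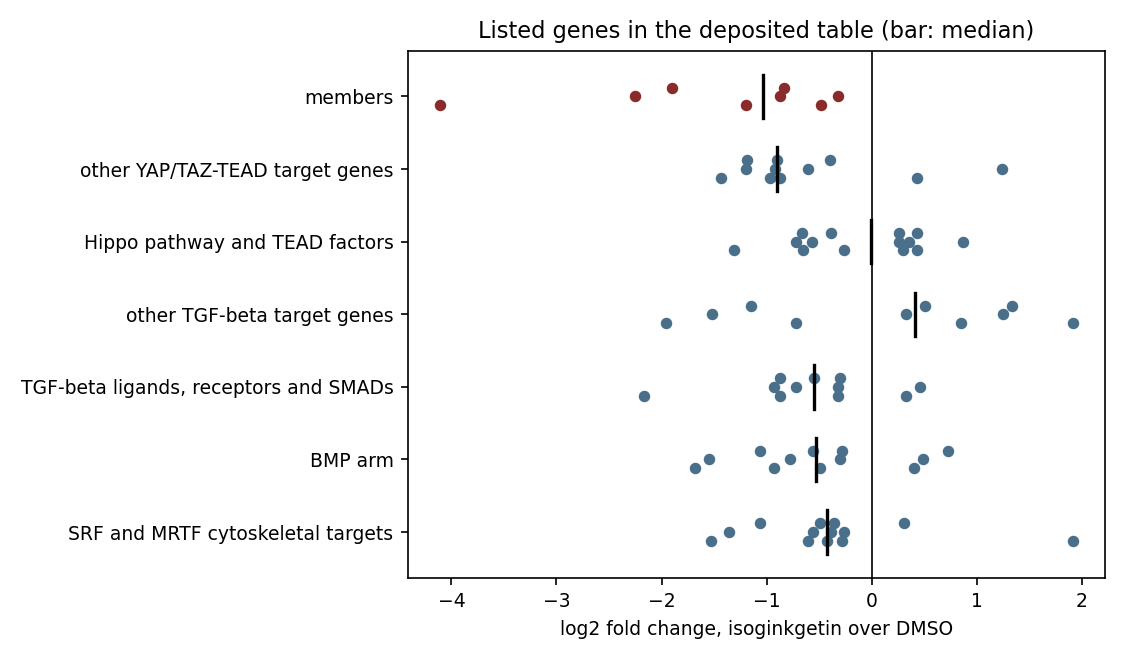
Log2 fold change, isoginkgetin over DMSO, of each listed gene with a row in the authors' deposited table, by list (points), with the median of each list as a bar. The members and most other YAP targets with a row lie left of 0, while the Hippo genes (median −0.01) and the other TGF-beta targets (median 0.41) spread to both sides; a gene may stand in several lists.

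How many members pass depends on the rule. At an adjusted p under 0.001 LTBP2 and SMAD7 drop out and 6 of 9 members stay lower, against 14.7% of tested genes. With Bonferroni adjustment CYR61 and AMOTL2 drop out too, and the 4 with at least 2-fold changes are left, against 11% of tested genes. With a minimum mean of 100 normalized counts LTBP2 alone drops out, leaving 7. Of all tested genes, whatever their mean, 17.7% were lower and reached that mean. The share among only the tested genes that reach it is not known. The fold change of LTBP2 looks shrunken: divided by its SE it reached 0.809 of the normal deviate of its own p-value, against 0.944 to 0.998 for the other 7 members. Its plain ratio may therefore be larger than printed. Over all genes with a mean under 100 the median of that share was 0.757, so the fold changes of AMOT, FBN3, ANGPTL4, CLDN5, PDGFRB and TAGLN may be understated in the same way.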

How the data were processed

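Polyadenylated RNA of HepG2 cells was sequenced in 2 isoginkgetin and 2 DMSO libraries, grouped by the sample titles. Per the submitters' processing notes, reads were handled with STAR 2.7.0 and featureCounts, with the builds hg19 and mm10 named without a role. The authors deposited 1 table, with headers as DESeq2 writes them, the test statistic missing; no source used here gives its model or version. Per the file headers, the mean normalized count is a signal averaged over libraries and scaled by the authors. Fold changes and SEs are deposited as log2 values, and may be shrunken. Each gene has a deposited p-value and one adjusted by Benjamini-Hochberg over 20024 genes, as the ratio of adjusted to raw p implies.

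Members and the 17 lists (164 genes) were matched by current or older symbol, and were chosen with earlier results of these data known. The named genes are all members, 13 core pathway genes, and the largest changes of each list by a fixed rule. Intervals are 1.96 SE to each side. Motifs were searched in RefSeq windows; motifs, windows, pairs of genes and roles were settled after values or matches were seen. The count model, the replicate block and leaving out libraries were planned but need values per library. A few listed genes, and 1 of the differences between genes, are not reported here. The depth per library is unknown, so no counting interval is given. The recovery of the number tested and the undoing of shrinkage were tested on simulated data. The simulated fold changes shared 1 normal prior, unlike the widths implied for the members, so that check covers the formula only. Analyses used Python 3.11.15, pandas 2.3.3 and scipy 1.17.1.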

Additional observations from a re-analysis of the deposited data

How the results depend on the processing

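Under a Bonferroni adjustment 4 of the 8 lower members were left, and with a minimum log2 fold change of 1 also 4; an adjusted p under 0.001, a mean of at least 100 and centring kept 6, 7 and 8. Of the 112 genes of the 6 pathway lists, members left out, 65 have a row, 46 lower and 19 higher. Among all tested genes 21.1% were lower and 22.4% higher. Bonferroni left 30 lower and 11 higher in the lists, and the minimum fold change left 14 lower and 4 higher. Of all tested genes 11% were lower under Bonferroni and 7.43% under the minimum fold change. At least 2-fold higher were 1253 of the 20024 tested genes, and the higher share under Bonferroni was not computed. Centring on the median of the table (0.21 on the log2 scale) moves every gene down, so it could not turn a member; the 19 higher genes, which it could turn, stayed higher. Undoing shrinkage under a normal prior moved LTBP2 to −1.34, which would make 5 members at least 2-fold lower; the prior width this implies ranged from 0.538 to 2.04 among members, so a single normal prior was not used. The stricter rules and the undoing of shrinkage cannot turn a direction, so they do not test it. No paired analysis was possible because the table holds no value per library, and for the same reason no replicate could be left out. Precision follows the level, with a median SE of 0.718 under a mean of 100 and 0.108 above it.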
